A study of Macaca fascicularis and Macaca mulatta with 24 samples.

Results

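Gene expression in the ischemic right cortex of cynomolgus macaques was compared between animals given TatNR2B9c and animals given placebo, 6 h after the right middle cerebral artery was occluded. Arrays were chosen by their titles, which name the right hemisphere, the 6 h time and the treatment, and gave 3 TatNR2B9c and 3 placebo arrays of the 24 in the series. Each array held cortical RNA of 1 sample, and per the labels there were 3 animals in each group. All animals, those given placebo included, had the occlusion on the right side and an intravenous dose 5 min later, which was 2.6 mg/kg TatNR2B9c in the treated group. The other arrays used for comparison were those of the left cortex at 6 h and the right cortex at 1 h, with 3 TatNR2B9c and 3 placebo arrays in each set. No sham-operated animals were analysed here, so both groups are groups with stroke, and the age, strain and sex of the animals are not given in the labels.

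TatNR2B9c is a peptide that joins the cell-penetrating segment of the viral Tat protein to the last residues of the NMDA receptor subunit NR2B. Those residues bind PSD-95, a scaffold protein of the postsynaptic density that also binds neuronal nitric oxide synthase. In ischemia glutamate overactivates NMDA receptors, calcium enters the neuron and nitric oxide is made close to the receptor, and the peptide was designed to part the receptor from this machinery while leaving the channel itself in place. Over the first hours after an occlusion, cortex is also known to switch on immediate early, heat shock, hypoxia and inflammatory genes.

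RNA was read on 2-colour arrays, with the sample in Cy5 and a universal macaque reference RNA in Cy3 on every array. A value is a log2 ratio of sample over reference, so that 0 means an equal signal in both. A difference of treated minus placebo of 1 is a 2-fold change. Of 15738 genes tested, 13823 had a symbol in the array files. Defining markers of neurons (5 of 5), astrocytes (4 of 4) and oligodendrocytes (4 of 4) stood well above background in the sample channel on all 6 arrays.

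The placebo 6 h arrays and the TatNR2B9c arrays were scanned on different days with different versions of the extraction software, so treatment and scanning campaign cannot be told apart. In Cy5, 87.2%, 84.9% and 83.9% of probes stood well above background on placebo arrays 1, 2 and 3, and 80.3%, 74.4% and 60.4% on treated arrays 1, 2 and 3. Every treated array lay below every placebo array, and treated array 3 was lowest. Treated arrays 1 and 2 shared a slide and a scan day. Treated array 3 lay on another slide, scanned on another day together with TatNR2B9c 1 h arrays. Animal, slide and scan day cannot be told apart for it. In the reference channel the ranges overlapped, at 84.4% to 88.2% under placebo and 78.6% to 91.4% under treatment. The spike-in control spots were weaker on the treated arrays in both channels: their signal over background was 6.42 to 65.6 against 88.9 to 145 under placebo in Cy5, and 288 to 448 against 1036 to 1466 in Cy3. The slope of their measured ratios was 0.18 to 0.75 under treatment and 0.82 to 0.86 under placebo. How widely an array spread its log2 ratios, as their SD across genes, was 1.65 ± 0.02 (SD, n = 3) under placebo and 1.25 ± 0.22 under treatment, with no overlap. For the Cy5 share, the SD and these 3 spike-in measures the two-sided exact permutation p was 0.1 (0.16 adjusted over 8 array measures), the smallest that 3 against 3 arrays can give.

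**Figure D1:**
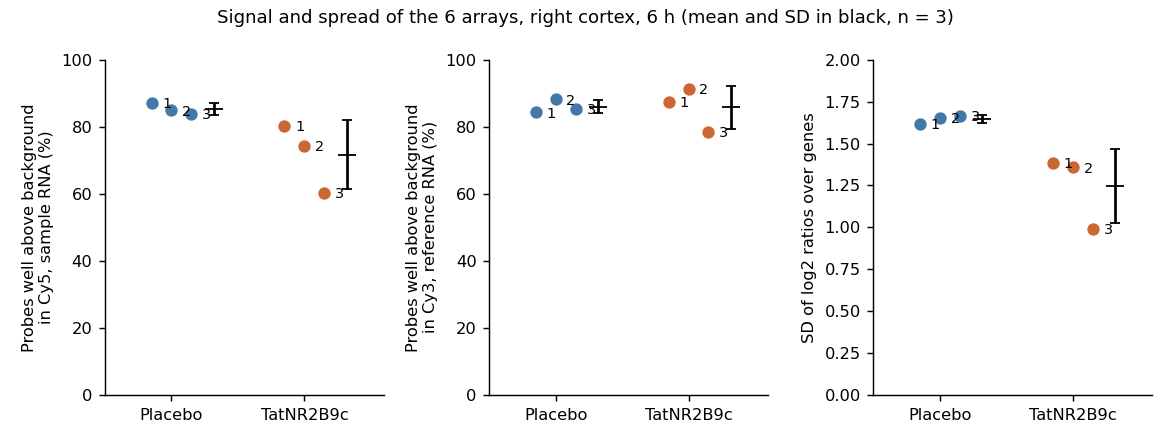
Percent of probes that stood well above background in Cy5 (sample RNA) and Cy3 (reference RNA), and SD of the log2 ratios across genes, for each of the 3 placebo and 3 TatNR2B9c arrays of right cortex at 6 h. Points are arrays marked by replicate number, and black marks give mean and SD; the treated arrays lie below the placebo arrays in the Cy5 share (60.4% to 80.3% against 83.9% to 87.2%) and in the SD, and overlap them in Cy3.

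The narrower spread can be seen gene by gene. Of all genes tested, 73.8% had a treated mean ratio nearer to 0 than the placebo mean. The same held for 603 of the 674 genes that differed between treatments (89.5%) and for 108 of the 135 that also differed in Cy5 alone (80.0%). Among genes called higher, 93.8% had a placebo ratio below 0, that is, were less abundant in cortex than in the reference, against 2.33% among genes called lower. The share of all genes with a placebo ratio below 0 was not counted, so these shares have no background beside them. The part of the array spread in these calls was not tested beyond the rescaling to equal spread given here: with all arrays scaled to the same spread, 4 genes passed, none of them named here, and all 674 kept their sign. In the extraction software's own processed signals 14 genes passed, and those among the genes named here are HBB, HBQ1, HLA-DOB, PLSCR4, ANKRD5 and GNG4.

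**Figure D2:**
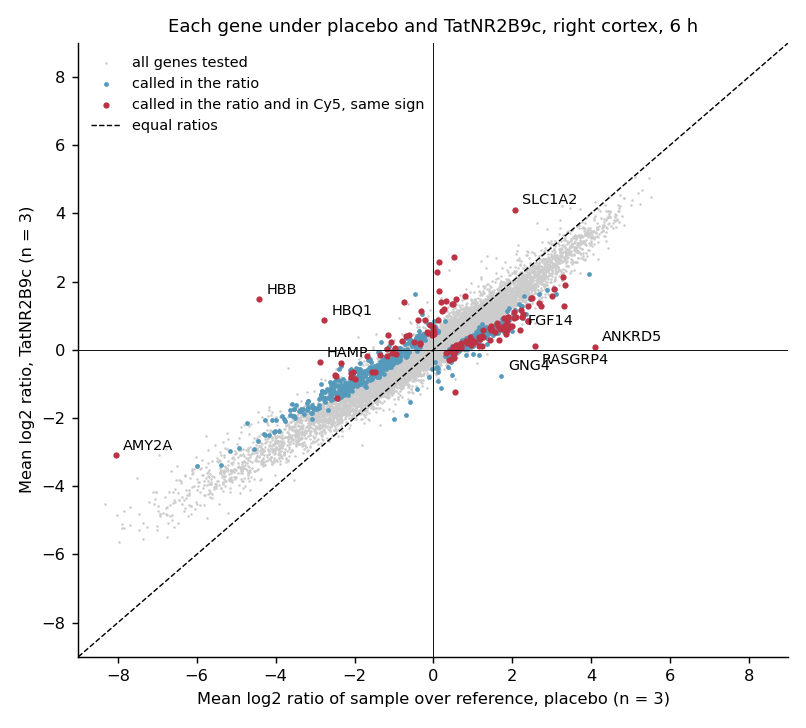
Mean log2 ratio of sample over reference under placebo (horizontal) and under TatNR2B9c (vertical) for each gene tested in right cortex at 6 h, n = 3 arrays a group; the dashed line marks equal ratios. The cloud is flatter than the line, with 73.8% of genes nearer to 0 under treatment, while HBB and HBQ1 cross from below 0 to above 0 and ANKRD5 falls from near 4 to near 0.

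With limma on the log2 ratios, 674 genes (4.28% of those tested) passed a Benjamini-Hochberg adjusted p of 0.05, 417 higher (2.65%) and 257 lower (1.63%) under TatNR2B9c. Of these, 209 rose and 66 fell by at least 2-fold. Read from the sample channel alone, 1198 genes passed (7.61%), 499 higher (3.17%) and 699 lower (4.44%), and the reference channel, which held the same kind of RNA on every array, gave 355 (2.26%). A gene was taken further where it passed in the ratio and in Cy5 with the same sign, which held for 135 genes (0.858%), 55 higher (0.349%) and 80 lower (0.508%). Of the 674 genes, 487 had the same sign in Cy5, and 10 were called there in the opposite direction. All 3 treated arrays lay on one side of all 3 placebo arrays for 30.3% of genes in the ratio and 35.2% in Cy5, which is the background for each gene below whose groups did not overlap. The ratio and Cy5 come from the same arrays, so the second reading is not an independent measurement. Of the 135 genes 5 also passed in Cy3, and their median size of difference in Cy3 was 0.20.

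**Figure D3:**
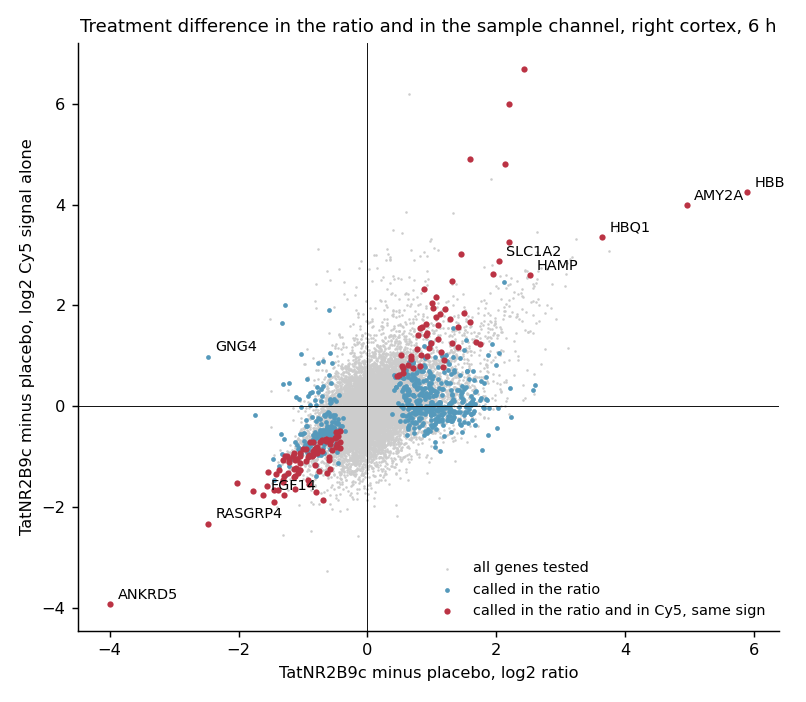
Difference of TatNR2B9c minus placebo in the log2 ratio (horizontal) and in the log2 Cy5 signal alone (vertical) for each gene tested, right cortex, 6 h. Red points are the 135 genes that passed in both with the same sign; blue points passed in the ratio only, and many of them lie near 0 in Cy5, while GNG4 lies at -2.48 in the ratio and 0.98 in Cy5.

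The globin probes that rose and the probe of the largest fall are shown as stretches of 30 bases, since their letters bear on what they read, 5′ to 3′, from the deposited array files. In the globin probes the capitals mark the polyadenylation signal AATAAA, and in the third they mark CCCTAA or CCCTAG, the first being the unit of the vertebrate telomere repeat.
HBB, bases 13 to 42: gccttgaggatctggattctgcctAATAAA
HBQ1, bases 23 to 52: tgcaccggcccttcctggtctttgAATAAA
ANKRD5, bases 1 to 30: agCCCTAGctgttaaaaaCCCTAACCCTAG
Their positions on the rhesus build rheMac2, as the files give them, are chr14:68176263-68176322 for HBB, chr20:137265-137324 for HBQ1 and chr10:43337929-43337988 for ANKRD5, all on the plus strand. The probe named HBQ1 (theta-globin) is described in the newest files as hemoglobin subunit alpha. A further probe with the same letters gave a difference of 3.67, and a separate probe described as theta-globin gave -0.07, so the first pair is called the alpha-globin probe here. The ANKRD5 probe holds CCCTAA or CCCTAG 5 times in its 60 bases, counted on both strands, against none or 1 in the other probes of the 24 leading genes. Whether it reads ANKRD5 RNA alone was not tested.

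HBB, the beta chain of hemoglobin, had the largest rise among named genes called in both readings. It had log2 ratios of -3.93, -5.30 and -4.02 on placebo arrays 1 to 3 and 0.33, 2.19 and 1.90 on treated arrays 1 to 3. All treated arrays lay far above all placebo arrays. The difference was 5.89 (SE 0.70, 59.3-fold, limma adjusted p = 0.000378), and 4.25 in Cy5 alone (adjusted p = 4.16e-05). The alpha-globin probe (HBQ1) read -2.94, -2.60 and -2.76 under placebo and 0.46, 1.11 and 1.05 under treatment, again with no overlap. It rose by 3.64 (SE 0.48, 12.5-fold, adjusted p = 0.000523), and by 3.35 in Cy5. Both globin probes passed with each of the 6 arrays left out in turn and in the extraction software's own processed signals. At equal spread neither passed, with HBB at 3.71 and the alpha-globin probe at 2.27, nor under median centring of the arrays, with 4.19 and 1.96 (adjusted p = 0.0538 and 0.207).

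Other red cell genes, chosen after the globin values were seen, were read beside these: 12 of 14 named genes were tested. ALAS2, the erythroid enzyme that starts heme synthesis, read -2.22, -2.30 and -2.49 under placebo and -1.04, -0.53 and 0.18 under treatment. It rose by 1.88 (SE 0.35, adjusted p = 0.00666). HBM, the mu-globin gene, rose by 1.34 (adjusted p = 0.00832), and AHSP, the chaperone of free alpha-globin, by 0.73 (adjusted p = 0.033). None of these 3 passed in Cy5 alone, where they were at 1.01, 0.72 and 0.41. The embryonic and fetal globins HBE1 (-0.04), HBG1 (0.50), HBG2 (0.13) and HBZ (-0.53) did not pass, nor did the membrane proteins SLC4A1 (-0.04) and EPB42 (-0.07) or the erythroid factors KLF1 (-0.10) and GATA1 (-0.07). Of these, SLC4A1, KLF1 and HBG1 were not well above background in Cy5 on any treated array, HBG2 was on 1 and HBE1 and GATA1 on 2, so their differences are not readings of an unchanged level. Over the 15 tested members of the list of neutrophil and red cell markers, 2 rose, HBB and ALAS2, and none fell, beside 2.65% and 1.63% of all genes. The mean ratio of the list ranged from -1.38 to -1.23 on the placebo arrays and from -0.69 to 0.20 on the treated ones. That mean includes HBB and ALAS2, so in part it repeats their values. The median difference of the 15 members was 0.31, beside 0.02 over all genes. In bulk tissue, more cells of a type and more RNA per cell cannot be told apart.

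HAMP encodes hepcidin, the hormone that limits iron export, and read -2.49, -2.77 and -3.38 under placebo and -0.42, -1.51 and 0.84 under treatment. Its difference was 2.52 (SE 0.65, adjusted p = 0.0341), and it passed with 1 of the 6 arrays left out but not with the other 5. SLC1A2 encodes EAAT2, the astrocyte transporter that clears most synaptic glutamate, and read 2.43, 2.25 and 1.52 against 3.79, 4.43 and 4.08. The groups did not overlap, and it rose by 2.04 (SE 0.47, 4.1-fold, adjusted p = 0.0192) and by 2.88 in Cy5, with a Cy3 difference of 0.29. SLC1A2 passed with 3 of the 6 arrays left out and did not pass in the processed signals, where the difference was 1.21. IDS, the lysosomal iduronate 2-sulfatase, read 0.39, 0.60 and 0.59 against 2.94, 2.87 and 2.36 and rose by 2.20 (SE 0.28, adjusted p = 0.000513), also with each array left out.

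SOD2, the mitochondrial superoxide dismutase that NF-kB induces, read -1.26, -0.74 and -0.94 under placebo and -0.49, -0.03 and 0.65 under treatment. It rose by 1.02 (SE 0.21, adjusted p = 0.012) and by 1.95 in Cy5, and passed with 4 of the 6 arrays left out. NOS3, the endothelial nitric oxide synthase, was picked out after its values were seen; it read -0.04, 0.01 and 0.68 under placebo and 1.19, 1.08 and 1.15 under treatment, and rose by 0.93 (adjusted p = 0.0248). PLSCR4, a phospholipid scramblase, rose by 1.95 (SE 0.30, adjusted p = 0.00158), from a placebo range of -2.41 to -2.27 to a treated range of -0.68 to -0.11. SDSL, a serine dehydratase-like enzyme, rose by 1.75 and ABCA4, a retinoid transporter of photoreceptors, by 1.69 (adjusted p = 0.0108 and 0.0191), which passed with 4 and 3 of the 6 arrays left out.

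Reference signals also differed for several of the leading rises above. The Cy3 differences were -0.86 for HBB, 0.65 for HBQ1, 0.88 for HAMP and 0.94 for PLSCR4, none of them called. For 4 of the 12 leading rises the reading is less direct still. AMY2A, the pancreatic amylase, read -7.78, -8.03 and -8.34 under placebo and -3.79, -4.24 and -1.26 under treatment. Its difference of 4.96 (SE 1.39, adjusted p = 0.0495) did not pass with any of the 6 arrays left out, and its reference signal differed by -0.52 (adjusted p = 0.0431). FLJ41993, HLA-DOB (a chaperone of MHC class II loading in B cells) and GCET2 (a germinal-centre B cell protein) rose by 2.43, 2.13 and 1.59 in the ratio and by 6.69, 4.80 and 4.91 in Cy5. In the reference channel the same 3 genes were higher on the treated arrays by 3.59, 2.06 and 2.44, of which that of FLJ41993 passed (adjusted p = 0.0118). HLA-DOB was well above background in Cy5 on 1 of 3 placebo arrays and on all 3 treated arrays.

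**Figure D4:**
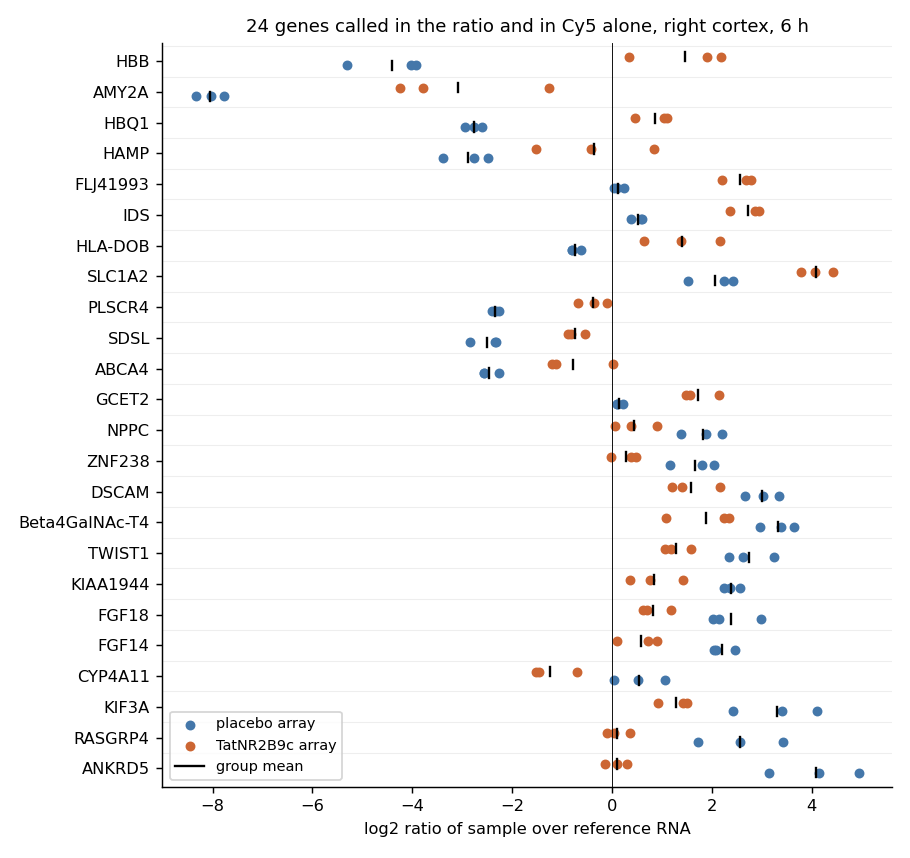
Log2 ratio of sample over reference on each of the 3 placebo (blue) and 3 TatNR2B9c (orange) arrays for the 12 largest rises and 12 largest falls among genes called in the ratio and in Cy5 alone, right cortex, 6 h; black bars are group means. In each of the 24 genes the 3 treated arrays lie on one side of the 3 placebo arrays, from HBB at the top to ANKRD5 at the bottom.

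The probe named ANKRD5 read 3.15, 4.15 and 4.96 under placebo and 0.31, 0.10 and -0.13 under treatment, and fell by 3.99 (SE 0.47, adjusted p = 0.000378). Its Cy5 signal stood well above background on 1 of the 3 treated arrays. RASGRP4, a Ras exchange factor of mast cells, read 1.73, 2.56 and 3.42 against 0.05, -0.09 and 0.35 and fell by 2.47 (SE 0.42, adjusted p = 0.00321). A further RASGRP4 probe gave 0.02, so the probes of this gene disagree, and the probe that fell holds CCCTAA or CCCTAG once. KIF3A, a subunit of the kinesin-2 motor, fell by 2.03 (adjusted p = 0.0178), and CYP4A11, a fatty acid hydroxylase, by 1.77 (adjusted p = 0.0174). Each of the pair passed with 3 of the 6 arrays left out, and RASGRP4 with all 6.

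FGF14, an intracellular relative of the fibroblast growth factors that binds neuronal sodium channels, read 2.05, 2.08 and 2.46 under placebo and 0.91, 0.72 and 0.11 under treatment. It fell by 1.62 (SE 0.19, adjusted p = 0.000378) and by 1.77 in Cy5, and passed with each array left out. FGF18, a secreted growth factor, read 2.02, 2.99 and 2.14 against 1.18, 0.62 and 0.70 and fell by 1.55 (SE 0.37, adjusted p = 0.0208); its other probe gave -0.57. NPPC encodes the precursor of C-type natriuretic peptide, and fell by 1.38 (SE 0.26, adjusted p = 0.00696) from ratios of 1.38, 1.89 and 2.21 to 0.90, 0.39 and 0.06. In each of these 3 genes all treated arrays were below all placebo arrays, and FGF18 and NPPC passed with 3 and 5 of the 6 arrays left out. FGF9, a neuronal and glial growth factor of the neurotrophic factor list, fell by 0.68 (adjusted p = 0.0354) in the ratio and did not pass in Cy5 (-0.82). Of 21 tested genes of that list FGF14 and FGF9 fell (beside 1.63% of all genes) and none rose, and the median was -0.07.

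TWIST1, a basic helix-loop-helix transcription factor, read 2.63, 2.34 and 3.25 under placebo and 1.59, 1.19 and 1.07 under treatment, a fall of 1.45 (SE 0.34, adjusted p = 0.0198). ZNF238, a zinc finger repressor of neuronal development, read 2.05, 1.16 and 1.80 against 0.49, 0.38 and -0.02. It fell by 1.39 (SE 0.24, adjusted p = 0.00341), and its other probe gave -1.34. DSCAM, an adhesion molecule of neurites, fell by 1.43 (SE 0.34, adjusted p = 0.0227) from 2.66, 3.03 and 3.35 to 2.16, 1.41 and 1.20. The falls of KIAA1944 (1.54) and Beta4GalNAc-T4 (1.44), a glycosyltransferase, had adjusted p of 0.00143 and 0.042. With 1 array left out in turn, ZNF238 and KIAA1944 passed all 6 times, TWIST1 and DSCAM 2 times and Beta4GalNAc-T4 once. FGF14, KIAA1944, ZNF238 and NPPC were each well above background on 2 of the 3 treated arrays.

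Beyond the genes named by rule, 34 further named genes rose in both readings by 0.49 to 1.58 and 51 fell by 0.42 to 1.32 on the log2 scale. DDX58 (0.49) and PCDHB16 were not well above background in Cy5 on any placebo array. MOSPD1, ALOX12B, BZRAP1, UBOX5 and ZNF133, which fell, were not on any treated array. The differences of these genes are no measured sizes. Among the further genes, picked out after their values were seen, KCNJ9, a G-protein-gated potassium channel subunit, read 2.38, 2.78 and 2.89 under placebo and 1.83, 1.51 and 0.76 under treatment, with a difference of -1.32 (adjusted p = 0.0177). SLC1A6, the glutamate transporter EAAT4, differed by -1.12 (adjusted p = 0.0178), opposite in direction to SLC1A2. NPAS1, a transcription factor of inhibitory neurons, differed by -1.28 (adjusted p = 0.0169).

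Genes of the drug's own target were read next. Of 7 listed NMDA receptor subunits 6 were tested, and none passed. GRIN1, the obligatory subunit, read 2.58, 3.70 and 3.46 under placebo and 2.53, 2.31 and 2.10 under treatment, a difference of -0.93 (SE 0.45, adjusted p = 0.25). GRIN2B, which encodes the NR2B subunit whose end the peptide copies, read 1.67, 2.26 and 2.06 against 2.05, 3.19 and 0.73. The treated values spanned the placebo values, and the difference was 0.00 with an SE of 0.52. GRIN2A was at -0.68, GRIN3A at -0.80, GRIN2D at -0.26 and GRIN2C at 0.11.

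DLG4, which encodes PSD-95, read 1.85, 1.97 and 2.13 under placebo and 1.08, 2.00 and 0.90 under treatment. Treated array 2 lay within the placebo range, and the difference of -0.66 (SE 0.24) did not pass (adjusted p = 0.124). NOS1, the neuronal nitric oxide synthase, was at 0.14 (SE 0.17, adjusted p = 0.662), with overlapping groups at 0.02, 0.35 and 0.11 against -0.09, 0.47 and 0.53. Of 23 tested genes of the PSD-95 complex none passed. Among them CAMK2A, the calcium-activated kinase of the postsynaptic density, was at -1.06 in the ratio (adjusted p = 0.44) and passed in Cy5 alone at -1.95 (adjusted p = 0.00028).

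Other synaptic and channel lists had medians below 0 with few members called. Of 44 voltage-gated ion channels 3 fell and none rose in the ratio, beside 1.63% of all genes that fell, with a median of -0.42. In Cy5 alone 5 of the 44 passed higher and 3 lower, beside 3.17% and 4.44% of all genes, with a median of -0.11. SCN2B, an auxiliary subunit of sodium channels, read 2.30, 2.02 and 2.49 against 1.77, 0.81 and 0.57 and fell by 1.22 (SE 0.27, adjusted p = 0.017). CACNA1A, the pore of P/Q-type calcium channels, read 1.97, 2.97 and 2.56 against 1.91, 1.57 and 1.05 and fell by 0.99 (SE 0.27, adjusted p = 0.0434). Both also passed in Cy5, whereas CACNA1C, the L-type pore, fell by 0.62 in the ratio and did not pass there (-0.49).

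GRIK5, a kainate receptor subunit, was the only member called among 18 AMPA, kainate and metabotropic receptors, at -1.28 (adjusted p = 0.0114). Its Cy5 signal was higher under treatment by 2.00 and its Cy3 signal by 2.65, so the ratio and the sample channel disagree in direction. None of 12 GABA receptor genes and none of 25 genes of presynaptic release passed, with medians of -0.44 and -0.41. Of 22 death channel and ion transport genes 2 fell (beside 1.63% of all genes) and none rose in the ratio, and neither passed in Cy5. ATP2A2, the calcium pump SERCA2, fell by 0.69 (adjusted p = 0.022) and lay at 0.41 in Cy5. At equal spread the medians of the NMDA (0.06), PSD-95 (0.09), GABA (0.15), ion transport (0.13) and presynaptic (0.08) lists lay above 0, and those of channels (-0.04) and AMPA-type receptors (-0.08) near 0.

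**Figure D5:**
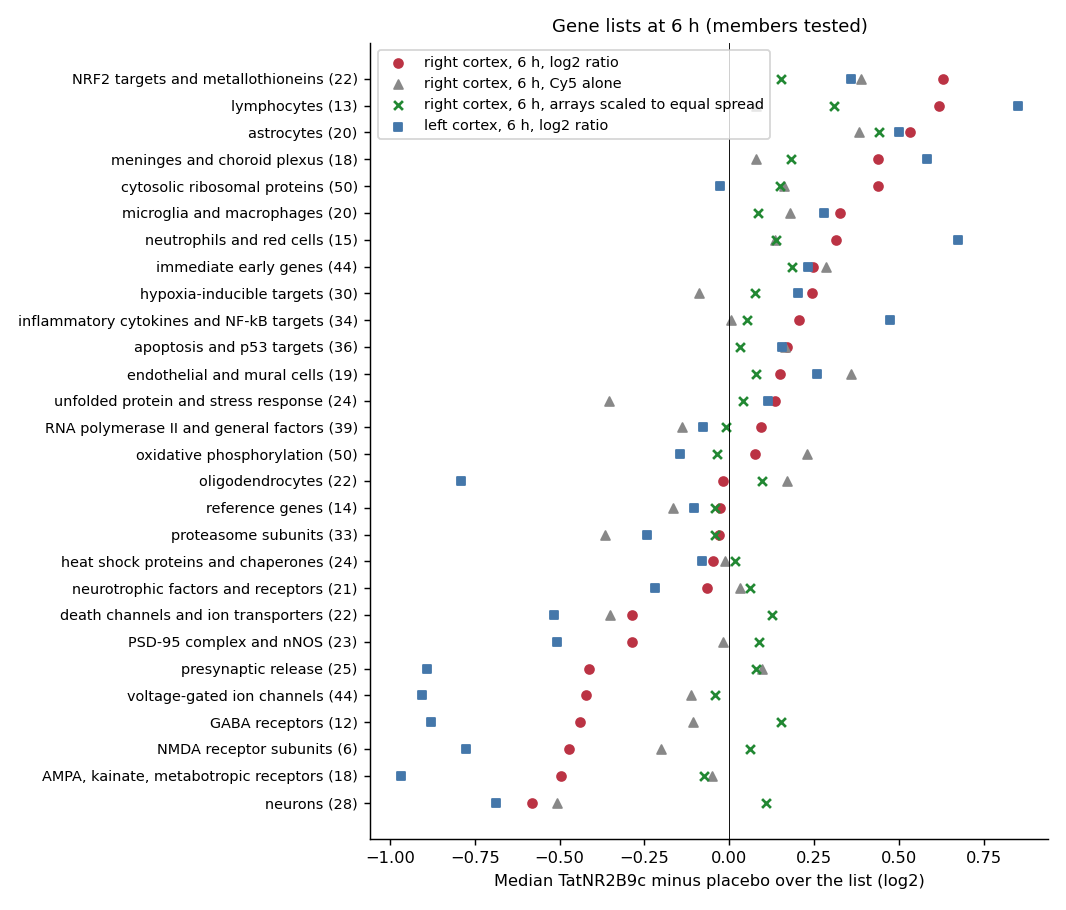
Median over each gene list of the TatNR2B9c minus placebo difference (log2) at 6 h, with the number of members tested in brackets: right cortex in the log2 ratio (red), in Cy5 alone (grey) and with arrays scaled to equal spread (green), and left cortex in the log2 ratio (blue). Receptor, channel and neuron lists lie between -0.58 and -0.29 in the ratio on the right and lower on the left, while the green marks of all lists but astrocytes and lymphocytes lie between -0.08 and 0.18.

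Stress and injury programmes were compared through lists of their known genes. Of 44 immediate early genes 1 passed: CTGF, a matrix-associated growth regulator, rose by 0.69 in the ratio (adjusted p = 0.022) and was at -0.24 in Cy5. FOS, the archetypal activity gene, was at 1.61 with an adjusted p of 0.49, and ARC, a synaptic activity gene, at -0.10. The list's mean ratio ranged from -0.95 to 0.31 on the placebo arrays and from -0.20 to 0.11 on the treated arrays, so the placebo arrays spread more widely and enclosed the treated ones.

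None of 24 heat shock genes passed. HSPB1, the small heat shock protein HSP27, was at 1.31 (adjusted p = 0.118), although it passed in Cy5 (2.43) and in Cy3 (1.55), and HSPA1A, the inducible HSP70, at -0.16. Of 30 hypoxia-inducible genes 1 passed: DDIT4, which restrains mTOR, rose by 1.13 in the ratio (adjusted p = 0.00666) but was at -0.89 in Cy5 and -1.01 in Cy3. Of 34 inflammatory genes 1 passed: SELP, the endothelial adhesion molecule P-selectin, rose by 0.79 in the ratio (adjusted p = 0.0224), with no call of the same sign in Cy5. IL6 was at -0.46 and IL1B at 0.44. The medians of these 3 lists were -0.05, 0.24 and 0.21. Median centring, which moved the median of all genes from 0.02 to -0.45, put them at -0.95, -0.41 and -0.16, and under it the lymphocyte, meningeal, and neutrophil and red cell lists were the lists whose medians stayed above 0.

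Of 36 apoptosis and p53 genes 2 rose (beside 2.65% of all genes) and none fell in the ratio, and neither passed in Cy5. BIK, a BH3-only protein, was one of them, but its Cy5 signal was not well above background on any treated array, so no size is given for its difference. EDEM1, a factor of endoplasmic reticulum protein disposal, rose by 1.04 and CHAC1, a glutathione-degrading target of the stress response, fell by 0.71, each called in the ratio only. SOD2 was the member called among 22 oxidative stress genes, whose median of 0.63 in the ratio was the highest of the 28 lists. That median was 0.39 in Cy5 and -0.60 under median centring. At equal spread it was 0.15, below those of astrocytes (0.44) and lymphocytes (0.31). The antioxidant enzyme GPX3 was at 2.48 (adjusted p = 0.186) and the metal-binding MT2A at 1.34 (adjusted p = 0.235), and both passed in Cy5 alone, at 2.55 and 1.80.

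None of 50 oxidative phosphorylation genes and none of 39 genes of RNA polymerase II and its general factors passed, with medians of 0.08 and 0.09. Among 50 ribosomal protein genes RPS10 rose by 0.98 in the ratio, with no call of the same sign in Cy5, and it lay at -0.45 under median centring. The ribosomal median was 0.44 in the ratio, fell below 0 with median centring (-0.79) and was 0.15 at equal spread. The mean ratio of that list was -0.70 to -0.63 on the placebo arrays and -0.36 to -0.22 on the treated ones, without overlap. Of its 50 members 24 did not overlap between groups, beside 30.3% of all genes, and 73.8% of all genes lay nearer to 0 under treatment. Among 33 proteasome genes PSMD9 and PSMD5 fell by 0.69 and 0.57, beside 1.63% of all genes that fell. PSMD5 was also called lower in Cy5, and PSMD9 was not. Of 14 reference genes GUSB fell by 0.67 (adjusted p = 0.0315), in the ratio only. Over all lists together 28 of 714 distinct genes passed (3.92%, beside 4.28% of all genes), and 7 of them also in Cy5 (0.98%, beside 0.858%).

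Markers of cell types were read because a biopsy can hold different shares of each. None of 28 neuron markers passed, 2 lay above 0, and their median was -0.58, the lowest of the lists. Their mean ratio was 3.05 to 3.55 on the placebo arrays and 2.94, 3.15 and 2.25 on treated arrays 1 to 3, so the groups overlapped and treated array 3 was lowest. At equal spread this median was 0.11.

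Among 20 astrocyte markers SLC1A2 and ID3, a transcriptional inhibitor, rose (beside 2.65% of all genes), ID3 by 1.44 (adjusted p = 0.013) in the ratio only. The median was 0.53, 0.44 at equal spread and -0.49 under median centring. GFAP, the astrocyte filament, was at 0.53 and AQP4, the water channel, at 0.64, neither called. None of 22 oligodendrocyte and none of 20 microglia and macrophage markers passed, with medians of -0.02 and 0.33, and CD74, the MHC class II invariant chain, was at 2.20 (adjusted p = 0.136) and passed in Cy5 alone at 2.11. ABCC9 rose by 0.75 (adjusted p = 0.00237) as the 1 call among 19 endothelial and mural markers, in the ratio only. CD27 rose by 1.26 among 13 lymphocyte markers and lay at -0.053 in Cy5. FOLR1 and COL1A2 rose by 1.58 and 1.14, in the ratio only, among 18 meningeal and choroid plexus markers, beside 2.65% of all genes that rose. The mean ratio of these markers was -2.09 to -1.67 under placebo and -1.46 to -0.80 under treatment. Their mean log2 Cy5 signals overlapped, at 8.56 to 8.89 and 8.75 to 9.28. The median difference was 0.44 in the ratio, 0.08 in Cy5 and 0.18 at equal spread. The part of cell composition in the other differences was not tested.

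Among large ratio differences with no call of the same sign in the sample channel, some were much smaller there and others about as large. CLCA1, RIPK4, TCF1 and SLC23A1 rose by 2.59, 2.56, 2.22 and 2.20 in the ratio and lay at 0.42, 0.33, -0.22 and 0.37 in Cy5, with none called there. Their reference signals differed by -1.05, -0.87, -1.01 and -0.38, none called. GNG4, a G-protein subunit, read 1.61, 2.13 and 1.43 under placebo and -0.98, -0.01 and -1.30 under treatment, a difference of -2.48 (SE 0.32, adjusted p = 0.000513). Its Cy5 signal was higher under treatment by 0.98 (adjusted p = 0.047), and its Cy3 signal by 2.64 (adjusted p = 0.0011), although the reference RNA was of the same kind on every array. The ratios of CBX6, ADCYAP1 (the neuropeptide PACAP) and FLJ32206 differed by -1.74, -1.46 and -1.45, and their Cy5 signals by -0.18, -1.06 and -1.47, with no call in Cy5. FLJ32206 thus kept its size in Cy5 and missed the threshold (adjusted p = 0.0581). The CBX6 probe carries the name NPTXR in the oldest files.

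The left, non-ischemic cortex of the same treatment groups gave the same directions. There 3813 genes passed (24.2%), 1674 higher and 2139 lower. All 674 genes called on the right had the same sign on the left, and 592 were called on both sides, which is 87.8% of the right list and 15.5% of the left list. The treated arrays of both sides share slides and scan days, and the sides share the animals where the numbers denote animals, so they are not independent. Placebo left arrays 1 and 3 were scanned on another day than the placebo right arrays. Their spike-in ratio slopes were 0.02 and 0.15, against 0.82 to 0.86 on the placebo right arrays. Their spike-in signal over background in Cy3 was 38.5 and 14.5, against 1036 to 1466. The left calls and the hemisphere test below rest in part on these arrays. HBB on the left read -1.12, -2.59 and -3.69 under placebo and 2.90, 1.42 and 3.36 under treatment, a difference of 5.03. The alpha-globin probe (HBQ1) was at 3.35 on the left, ANKRD5 at -4.12, SLC1A2 at 1.81, FGF14 at -1.95 and SOD2 at 1.28. All of these passed there.

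Whether the treatment difference itself differed between ischemic and non-ischemic cortex was tested as an interaction. With limma no gene passed (672 at an unadjusted p of 0.05), and the smallest adjusted p was 0.897. The model held no term for the animal, although same-numbered right and left arrays may come from 1 animal. With these numbers as a random block (correlation 0.0479), or as a fixed block over the 12 arrays of 6 h, again no gene passed, with 753 and 530 at an unadjusted p of 0.05. For HBB the right minus left difference was 0.86 with an SE of 0.99, for SLC1A2 0.22 with an SE of 0.67 and for FGF14 0.33 with an SE of 0.27. None of the differences named above was therefore shown to be particular to the ischemic side.

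In right cortex at 1 h 247 genes differed between treatments (1.57%), 57 higher and 190 lower. The difference at 6 h departed from that at 1 h for 537 genes (3.41%), 404 of them higher at 6 h (2.57%). These comparisons share the right 6 h arrays, and the placebo arrays of the 2 times were also scanned in separate campaigns. So were treated right 6 h arrays 1 and 2, scanned on another day than the treated 1 h arrays. In the reference channel placebo right 1 h arrays 1 to 3 had 51.0%, 51.7% and 22.2% of probes well above background. The SDs of their log2 ratios were 1.06, 1.08 and 0.65. The placebo right 6 h arrays had 84.4% to 88.2% and a mean SD of 1.65. The part of these array differences in the time comparison was not tested. Side by side, the 6 h and 1 h differences were 5.89 and 1.97 for HBB, 3.64 and 0.66 for HBQ1, and 2.04 and 2.18 for SLC1A2. They were -1.62 and -0.01 for FGF14, -2.47 and -1.10 for RASGRP4, and 1.02 and -0.78 for SOD2. At 1 h SLC1A2 passed (adjusted p = 0.025) and HBB, HBQ1, FGF14, RASGRP4 and SOD2 did not.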

How the data were processed

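Agilent Feature Extraction 10.5.1.1 read the placebo 6 h arrays and 10.7.3.1 the TatNR2B9c arrays, per the file headers, although only 10.7.3.1 stands in the submitters' processing notes. Intensities as deposited are mean spot brightness and median local background per channel, not normalised, per the file headers. The deposited log10 ratios, also held by the authors' series matrix (within 0.005), are of processed Cy5 over processed Cy3, with column medians of 0.0206, 0.0206 and 0.01 for placebo right 6 h arrays 1 to 3 and 0 for each treated one. There was no dye swap. Probes lie on the rhesus build rheMac2, and the animals were cynomolgus.

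Background was corrected with normexp (offset 50) and log2 ratios of the deposited intensities were normalised by loess, with control spots at weight 0 and nonuniform spots (0 to 688 an array) left out. Single channels were quantile-normalised log2 intensities. Probes entered the fit where 1 group or more had all its arrays well above background in Cy5 (17212 probes), and a gene was read by its brightest kept probe. Gene names are those of the files, newest first: 6827 of 20217 probes were named by the newest, 10618 only by the oldest, and 1348 of the 6250 named by both differ.

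limma 3.58.1 (R 4.3.3, two-sided) was fitted on all 24 arrays with 8 group means. The fit was tested on simulated data with independent noise for each gene and array. That simulation held no effect of scan campaign, slide or array spread, so it does not bear on these. Genes named were the 12 largest rises and falls called in both readings, the 4 largest of each called in the ratio only, up to 4 called (otherwise 2) of each list, and the drug's target genes. Members and lists were chosen with earlier results of these data known. Alternatives covered channel, background, normalisation, filter, probes, fit, slide, scan day, replicate block and each array left out. The limma p-values rest on the spread between arrays within groups, pooled over the 8 groups. Right and left arrays entered the main fit as independent, and 3 arrays a group limit precision. Some genes that the naming rule selects are not reported here.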

Additional observations from a re-analysis of the deposited data

Results flagged for a closer look

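For 22 named genes the treatment difference in right cortex departed between 6 h and 1 h by limma's interaction test (adjusted p between 0.00468 and 0.0499). The naming rule chose genes largely by their 6 h difference, which is also a term of this interaction. Departures in the direction of that difference are thus in part built in, and the count of 22 is no result about these genes. The departure, 6 h minus 1 h in log2, was 3.92 for HBB, 2.98 for HBQ1 and 1.89 for ALAS2 among the red cell genes. It was 1.80 for SOD2, 2.26 for ID3 and 0.68 for ABCC9. Among stress genes it was 1.16 for DDIT4, 1.11 for EDEM1 and 0.85 for CTGF. The value for BIK was 1.95, which is no measured size, since BIK was not well above background in Cy5 on any treated 6 h array. CD27 and TCF1 were at 1.78 and 2.75. Lower at 6 h than at 1 h were ANKRD5 (-2.50), KIAA1944 (-2.08), TWIST1 (-1.92), FLJ32206 (-1.70), SCN2B (-1.70), FGF14 (-1.61), GRIK5 (-1.53), ZNF238 (-1.37), FGF9 (-0.97) and PSMD5 (-0.70). Placebo arrays of 1 h and 6 h came from separate scanning campaigns, so time and campaign cannot be told apart under placebo. Treated right 6 h arrays 1 and 2 were scanned on another day than the treated 1 h arrays, and array 3 on the same day. The placebo right 1 h arrays also had fewer probes well above background in the reference channel, at 22.2% to 51.7% against 84.4% to 88.2% at 6 h. Over all genes this interaction gave 537 calls, and 4 at equal spread.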

How the results depend on the processing

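Of 674 genes called, 10 were also called with processed signals, 13 in the series matrix, 136 with median centring and 216 on the 6 arrays alone; 668, 669, 646 and 674 kept their sign. The count was 1198 in Cy5 alone, 355 in Cy3 alone, 14 with processed signals, 4 when scaled to equal spread, 23 by the series matrix values, 232 with probes well above background in both channels on all 6 arrays and 1319 with array weights. Median centring called 477, 30 higher and 447 lower, against 417 and 257, and the 6 arrays alone called 425 higher and 61 lower. Without subtracting background 340 rose and 310 fell. With scan day as a random block 504 passed, and with slide 660. No cause of these moves was tested. Leaving out 1 array gave 167 to 983 (317, 342 and 323 without placebo arrays 1 to 3, 983, 390 and 167 without treated arrays 1 to 3), and 119 of the 674 genes, 30 of the 135, passed all 6 times. Without the 4 arrays of the slide of treated arrays 1 and 2, chosen after seeing the data, 1982 passed, with treated array 3 alone assumed to vary like the other groups. Replicate numbers did not pair the animals (correlation of deviations 0.17, 0.02 and -0.17), and the replicate block left 1 call.

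The hemisphere interaction gave 0 in Cy5, at equal spread, with no filter, with processed signals and with either replicate block across hemispheres (chosen after seeing the data), and 0 to 21 with 1 array left out, 21 being without TatNR2B9c left array 2. The time interaction gave 227 in Cy5, 4 at equal spread, 11 with processed signals and 110 to 966 with 1 array left out. The left cortex gave 2441 in Cy5, 15 at equal spread, 28 with processed signals and 1997 to 5488 with 1 array left out. Cy5 alone in right cortex gave 440 to 1382 and Cy3 alone 77 to 333 with 1 array left out. Signs turned in Cy5 alone for TCF1 (-0.22), GNG4 (0.98), GRIK5 (2.00), ATP2A2 (0.41), CTGF (-0.24), DDIT4 (-0.89), BIK (-0.27), EDEM1 (-0.38) and CD27 (-0.053), and under median centring for RPS10 (-0.45). Fewer probes well above background on the treated arrays limit what can be read there.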
